A study of Mus musculus with 2 samples.

Results

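The AP-1 family of transcription factors was described in a mouse tumour cell line, KPCY 6419c5, derived from pancreatic ductal adenocarcinoma, over the 9 genes Fos, Fosb, Fosl1, Fosl2, Jun, Junb, Jund, Atf3 and Batf3. These are 9 of the 33696 features of the count matrix, matched by symbol, and all 9 were found. The cells came from 1 droplet library that mixed clone 76 and clone 84 at equal cell numbers on day 19 of editing, and each clone had been grown from 1 sorted cell. Per the labels both clones carried BASELINE, a lineage-tracing system, and had been transfected with an adenine base editor built on Cas12a. A second sample, a pool of 5 clones, was not analysed here, and the labels name no unedited control.

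AP-1 is not 1 protein but a set of dimers. Jun proteins can pair with each other or with Fos proteins, whereas Fos proteins need a Jun partner to bind DNA, and all use a basic region for DNA contact and a leucine zipper for pairing. Growth factor signals through the MAP kinases raise Fos and Jun transcription within minutes, Fosl1 and Fosl2 follow later, and Jund is typically kept at a steady level. Cell dissociation and handling can raise some of the same genes. In epithelial tumours the family is best known for driving proliferation, invasion and matrix-degrading enzymes.

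No file used here links a cell to a clone, so cells were compared as A and B cells, defined by marker UMIs (unique molecular identifiers, 1 per captured RNA molecule). A cells had at least 2 UMIs of Pde10a, Plcb1, Galnt18, Arhgap15 and Ceacam1 together and at least 3 times as many of these as of the B markers. B cells met the mirrored rule for S100a7a, Rgs20, Hs6st2, Ccbe1, Ctse and Mal. None of the 9 genes was used. Of 22178 barcodes, 21361 passed limits of 2000 UMIs and 1000 genes as minimum and of 15% of UMIs from mitochondrial genes as maximum. These held 7816 A cells, 8936 B cells and 4609 cells in neither group. Median depth was 4699.5 UMIs in A cells and 5440.5 in B cells, and median mitochondrial share was 3.19% and 1.89%. Both groups expressed epithelial and mesenchymal genes, given in CPM, the UMIs of a gene per 1000000 UMIs of all genes. Krt18 had 1083 and 3019 CPM in A and B cells, Cdh1 31.5 and 116 CPM and Epcam 31.8 and 3.16 CPM, while Cldn4 and Cldn7 were at 1.09 CPM or less. Vim had 1375 and 1972 CPM, Cdh2 27.2 and 199 CPM, Fn1 167 and 17.9 CPM and Twist1 26.8 and 0.853 CPM. The 8 fibroblast markers summed to 2.21 and 1.59 CPM and the 9 immune markers to 1.59 and 0.739 CPM, with Itgax and Clec9a at 0 UMIs. Endothelial markers summed to 33.5 and 8.55 CPM, of which Egfl7 gave 32.6 and 7.75 CPM, with Kdr at 0. Acinar markers summed to 13.7 and 4.396 CPM, of which Prss2 gave 10.007 and 4.21 CPM, with Cpa1 at 0. Erythroid markers summed to 0.497 and 3.30 CPM and endocrine markers to 0.0497 and 0.0758 CPM. With 1 library there was no replicate of either group and no test. Each CPM is a sum over cells with its exact 95% Poisson interval, and each share of cells has an exact 95% Clopper-Pearson interval, both covering counting error only.

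B cells held more Fos, Fosl1 and Junb RNA than A cells, and A cells held more Jund. Jun sat at the edge of a 2-fold difference towards B, Fosl2 and Atf3 were close to even, and Fosb and Batf3 were barely seen. Of the 9 genes, 7 reached 10 CPM in A or B cells, Fos and Fosl1 only in B. Past 2-fold, 3 genes were higher in B and 1 was higher in A. Since Fos and Fosl1 met the minimum only in the group where they were higher, their calls are a description. Over all 8800 features that reached 10 CPM in A or B cells, 7.26% were past 2-fold higher in B and 10.3% were past 2-fold higher in A.

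**Figure D1:**
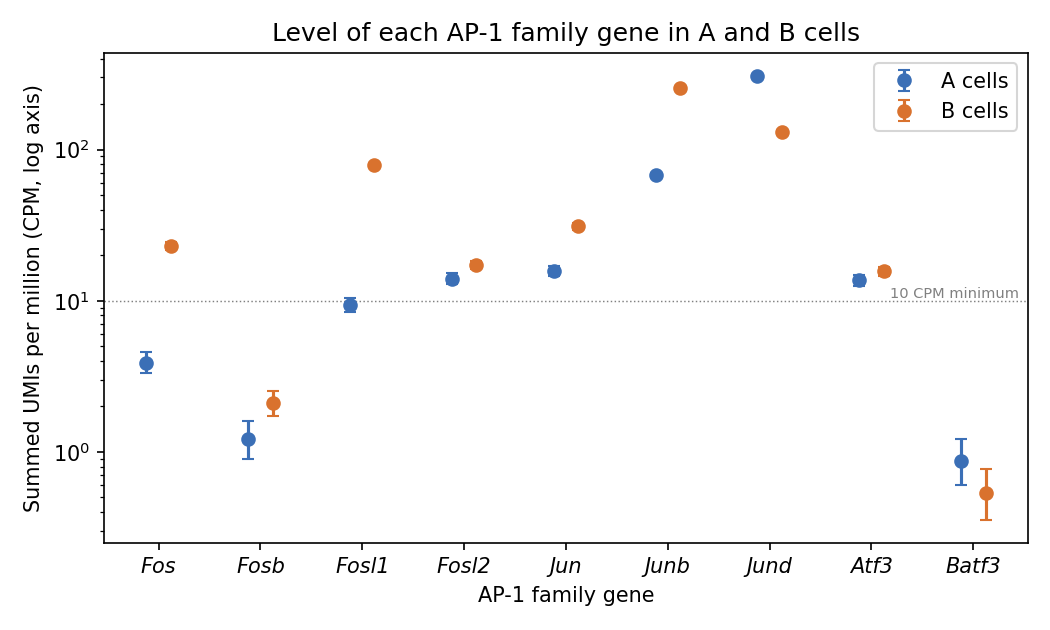
Summed UMIs per 1000000 UMIs (CPM, log axis) of each AP-1 family gene in the 7816 A cells (blue) and 8936 B cells (orange) of 1 library, with exact 95% Poisson bars that cover counting error only. Fosl1 lay at 9.36 CPM in A cells and 79.0 CPM in B cells, whereas Jund lay at 305 CPM in A cells and 131 CPM in B cells.

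Among the Fos genes, Fosl1, whose protein lacks the strong activation domain of Fos and which is often raised in invasive carcinoma cells, had the highest ratio of B over A. It had 377 UMIs in A cells, or 9.36 CPM (interval 8.44 to 10.4), and 4167 UMIs in B cells, or 79.0 CPM (76.6 to 81.4). The B level was 8.44 times the A level (7.59 to 9.398). Fos, the prototype immediate-early gene, had 157 UMIs in A cells, or 3.90 CPM (3.31 to 4.56), and 1216 in B cells, or 23.0 CPM (21.8 to 24.4). This was a ratio of 5.91 (5.00 to 7.02). The intervals of the groups do not overlap for either gene, nor for Fosl2 at a ratio of only 1.23. They cover counting error only, and the share of all features without overlap was not counted.

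Fosl2, a later-induced relative of Fosl1, had 14.0 CPM (12.8 to 15.2) in A cells and 17.3 CPM (16.2 to 18.4) in B cells, a ratio of 1.23 (1.11 to 1.37). Fosb, which is known for a stable truncated isoform that 3′ counts cannot separate, had 49 and 111 UMIs, or 1.22 and 2.10 CPM. It stayed under the minimum level in both groups. The 4 Fos genes together had 28.5 CPM (26.8 to 30.2) in A cells and 121 CPM (118 to 124) in B cells.

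The 3 Jun genes moved in opposite directions. Junb, a Jun protein that can restrain Jun in proliferation and takes part in epidermal and immune programs, had 67.7 CPM (65.2 to 70.3) in A cells and 254 CPM (249.5 to 258) in B cells. The B level was 3.75 times the A level (3.60 to 3.91). Jund, the steadily expressed member, had 305 CPM (299 to 310.2) in A cells and 131 CPM (128 to 134) in B cells, so that A cells held 2.33 times as much (2.26 to 2.40). Jun itself had 15.7 CPM (14.5 to 16.9) and 31.1 CPM (29.6 to 32.6), a ratio of 1.98 (1.81 to 2.18). It fell just short of 2-fold and was past it under 6 of 11 alternatives: marked doublets removed, stricter assignment, thinned cells, a mean over cells, cells of like mitochondrial share, and ratios centred on the median of features with at least 50 CPM. That median lay at -0.11 on the log2 scale.

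The summed Jun genes were close, at 388 CPM (382 to 394) in A cells and 416 CPM (410.4 to 421) in B cells, while their make-up differed. Of the 17363 family UMIs in A cells, Jund gave 70.7% and Junb 15.7%. Of the 29209 in B cells, Junb gave 45.9% and Jund 23.7%. Fosl1 gave 2.17% of the family UMIs in A cells and 14.3% in B cells. These shares count 3′ tags, 1 per captured molecule and not divided by length, and capture can differ between genes.

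Atf3, a stress-induced factor that pairs with Jun proteins and often represses, had 13.7 CPM (12.5 to 14.8) in A cells and 15.7 CPM (14.7 to 16.8) in B cells, a ratio of 1.15 (1.03 to 1.29). Batf3, needed for cross-presenting dendritic cells, had 35 UMIs in A cells and 28 in B cells. Its ratio of B over A was 0.611 with an interval of 0.358 to 1.03, which includes 1. The dendritic cell markers Itgax and Clec9a were at 0 in both groups, and Xcr1 had 1 UMI in all.

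Free RNA and mixed droplets bear on the lower level of each pair, and were gauged from other genes. The 20 features outside the rule that were most restricted to B cells kept a median of 4.05% of their B level in A cells (1.39 to 6.05%). The 20 most restricted to A cells kept 4.09% in B cells (2.39 to 6.42%). The A level was 11.9% of the B level for Fosl1, 16.9% for Fos and 26.7% for Junb, and the B level of Jund was 43.0% of its A level. Those features were chosen for a low residual, so they are no neutral yardstick, and the part of free RNA in the 4 lower levels was not tested.

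Genes restricted to the other group moved with several members. The summed level of the B-restricted genes, in cells thinned to 3000 UMIs, was 245 CPM (207 to 289) in the 197 A cells with a Fosl1 UMI and 113 CPM (108 to 117) in those without. It was 198 CPM (147 to 260) with a Fos UMI against 115 CPM without, 166 against 114 CPM for Fosl2, and 156 against 108 CPM for Junb. For Jun it was 116 CPM with and 116 CPM without, and for Atf3 103 and 117 CPM. In B cells the A-restricted genes summed to 138 CPM (130 to 146) with a Jund UMI and 105 CPM (100.4 to 109.9) without. The part of mixed droplets in the A levels of Fosl1, Fos, Fosl2 and Junb and in the B level of Jund was not tested further. After removal of barcodes marked as doublets, the log2 ratio of B over A was 3.16 for Fosl1, 2.63 for Fos, 1.95 for Junb and -1.25 for Jund, against 3.08, 2.56, 1.91 and -1.22.

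Mitochondrial share and depth, which differed between the groups, were followed within each group over 5 ranges of equal cell number. No gene that reached 10 CPM differed 2-fold between the highest and lowest range of mitochondrial share or of depth, in A or in B cells. For mitochondrial share, 2.15% of features were past 2-fold higher in the highest range and 0.208% in the lowest range of A cells, against 0.369% and 0% in B cells. For depth these were 0.648% and 1.11% in A cells, and 0.677% and 0.037% in B cells. From the lowest to the highest mitochondrial range, Fosl1 went from 11.9 to 6.29 CPM in A cells and from 90.3 to 67.9 CPM in B cells. Junb went from 70.7 to 84.3 CPM in A cells and from 247 to 267 CPM in B cells. Fos, under the minimum in A cells, was at 4.09, 1.81, 2.94, 3.31 and 7.79 CPM there, from the lowest to the highest mitochondrial range. Over the depth ranges of A cells it was at 7.37, 6.33, 2.45, 2.15 and 3.37 CPM, from the shallowest to the deepest. Among the 2666 A and 3253 B cells with 2 to 3% mitochondrial UMIs, the log2 ratio of B over A was 2.61 for Fosl1, 2.99 for Fos, 2.04 for Junb and -1.14 for Jund, so that there Fos and not Fosl1 had the highest ratio.

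Seen per cell, 8 of the 9 members had no UMI in most A cells, and each of the 9 had none in most B cells, once each cell was thinned to 3000 UMIs. Of the 7406 A and 8827 B cells deep enough for this, a Jund UMI was found in 56.0% of the A cells (54.9 to 57.2%) and 31.4% of the B cells (30.5 to 32.4%). Junb was found in 16.8% of A cells (15.9 to 17.6%) and 49.5% of B cells (48.5 to 50.6%). Fosl1 was found in 2.66% (2.31 to 3.05%) and 20.4% (19.6 to 21.2%), and Fos in 1.16% (0.930 to 1.43%) and 6.30% (5.80 to 6.83%). Without thinning the shares were 70.4% and 49.2% for Jund, 25.4% and 69.2% for Junb, 4.41% and 34.4% for Fosl1, and 1.82% and 11.0% for Fos.

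**Figure D2:**
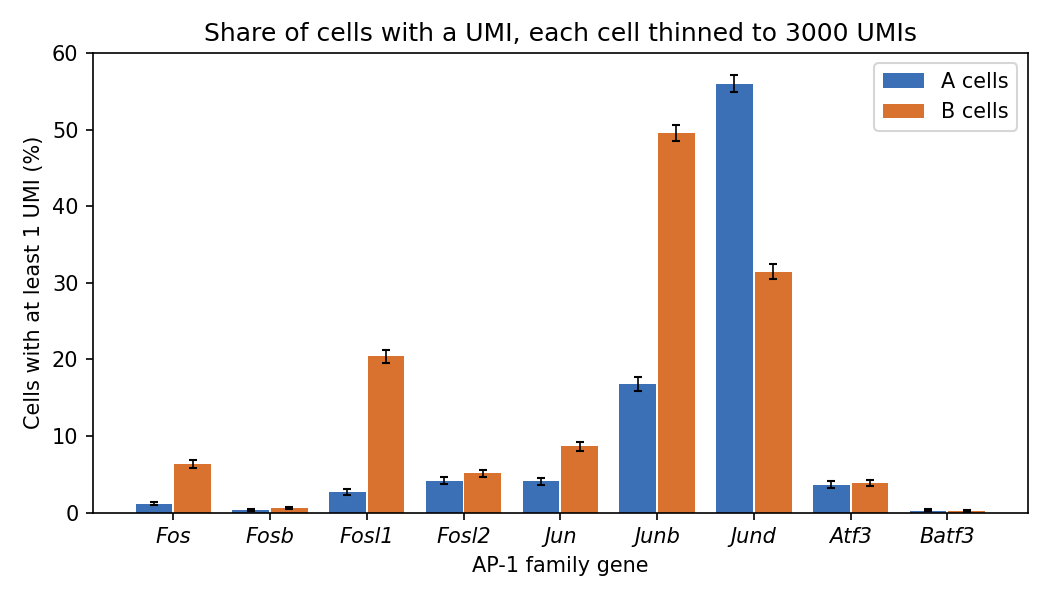
Share of cells with at least 1 UMI of each AP-1 family gene (%), with each cell thinned to 3000 UMIs, in 7406 A cells (blue) and 8827 B cells (orange), with exact 95% Clopper-Pearson bars. Jund was seen in more A cells (56.0% against 31.4%) and Junb in more B cells (49.5% against 16.8%).

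Jun was seen in 4.09% of A cells and 8.67% of B cells, Fosl2 in 4.17% and 5.13%, and Atf3 in 3.62% and 3.85%. Fosb was seen in 0.351% and 0.555% and Batf3 in 0.270% and 0.170%, or 20 A cells and 15 B cells. At these shares a cell without a UMI cannot be read as a cell without the RNA.

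Among cells with a UMI most had a single one, and Atf3 in B cells had a long tail. Its variance over its mean (the Fano factor, 1 for pure counting) was 1.68 in thinned B cells, above 99.5% of the 7911 features with at least 10 CPM there, whose median was 1.02. Unthinned, 13 B cells with at least 5 Atf3 UMIs held 14.0% of its UMIs in B cells, and the highest had 18. In A cells its factor was 1.17, and 4 cells with at least 5 UMIs held 4.18%. Fos was close to 1 in A cells, at 1.03, and reached 1.21 in B cells. Junb stood at 1.18 and 1.21, Jund at 1.26 and 1.06, Jun at 1.13 and 1.09, and Fosl2 at 0.996 and 0.982.

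A Fos-family and a Jun-family transcript are both needed for a Fos-Jun dimer. Both kinds were seen in 5.60% of thinned A cells (5.09 to 6.15%) and 20.04% of thinned B cells (19.2 to 20.9%). The product of the separate shares gave 5.23% and 20.03%, so that observed over expected was 1.07 in A cells and 1.00 in B cells. Neither kind was seen in 33.0% of A cells and 22.8% of B cells, and Jun-family UMIs alone in 58.9% and 47.6%. At least 3 of the 9 genes were seen in 2.55% of A cells and 9.47% of B cells, and the most in 1 cell was 5 and 7.

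Co-expression of single pairs was read as the number of thinned cells with UMIs of both genes over the number expected from the 2 shares. Of 36 pairs, 16 in A cells and 23 in B cells had at least 10 expected cells. Their ratios ran from 0.824 to 2.496 in A cells, with a median of 1.11, and from 0.802 to 1.73 in B cells, with a median of 1.04. Pairs at 1.5 times or more numbered 2 in A cells and 1 in B cells. Pairs of the same 9 genes with other features of at least 50 CPM were read under the same minimum of 10 expected cells. Of these, 0.324% reached 1.5 in A cells and 0.0905% in B cells. Jun with Atf3 in A cells and Fos with Atf3 in B cells have both genes under 50 CPM. The share of all features therefore holds no pairs of such low genes and is not a like comparison for them.

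**Figure D3:**
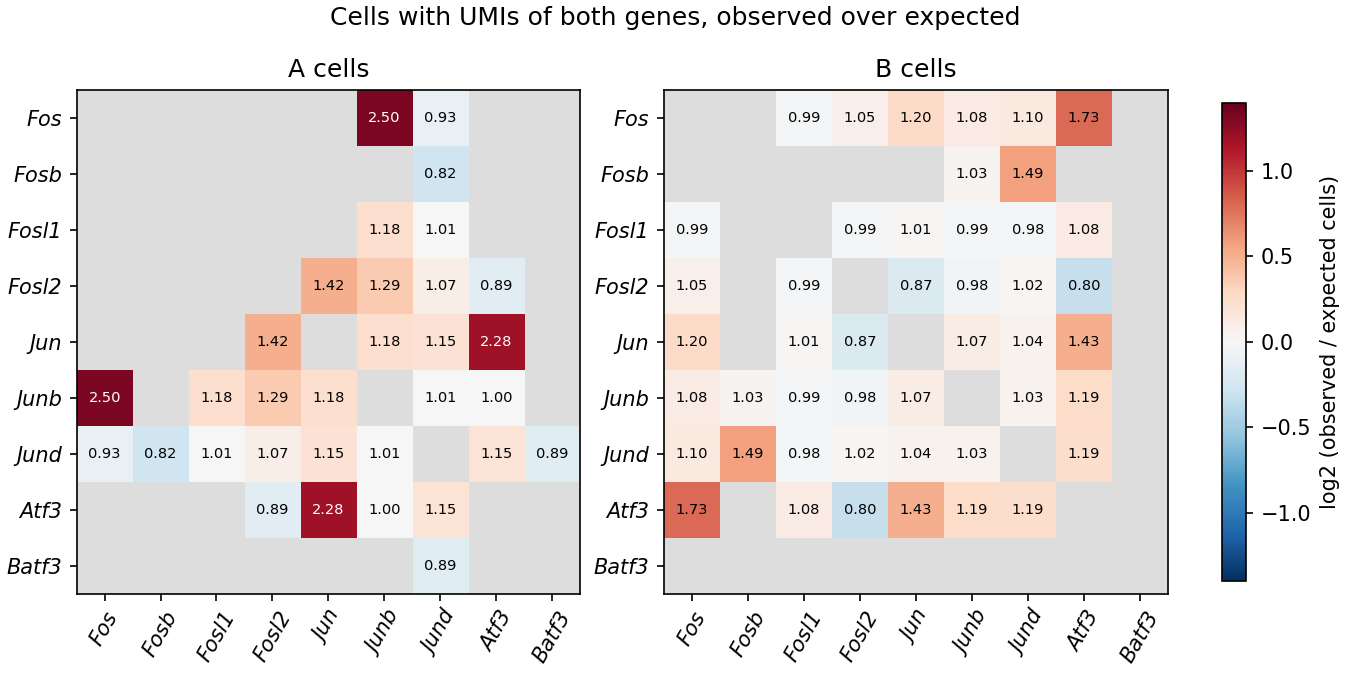
Number of cells with UMIs of both genes over the number expected from the separate shares, for each pair in A cells (left) and B cells (right) thinned to 3000 UMIs, with colour for the log2 of that ratio. Grey squares are the diagonal or pairs with under 10 expected cells, and the highest values are 2.496 for Fos with Junb and 2.28 for Jun with Atf3, both in A cells.

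Fos and Junb were seen together in 36 A cells against 14.4 expected, a ratio of 2.496 (1.75 to 3.46). In B cells they were together in 298 cells against 275 expected, a ratio of 1.08 (0.963 to 1.21). In A cells the ratio was 2.06 with marked doublets removed, 1.67 in cells with at most 5% mitochondrial UMIs and 1.63 under a stricter assignment to A and B, where 7.38 cells were expected. Fosl1 and Junb, which like Fos were higher in B cells, had a ratio of 1.18 (0.839 to 1.61) in A cells and 0.992 (0.928 to 1.06) in B cells.

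Jun and Atf3 were seen together in 25 A cells against 11.0 expected, a ratio of 2.28 (1.48 to 3.37), and in 42 B cells against 29.5 expected, a ratio of 1.43 (1.03 to 1.93). Over the alternatives the B value ran from 1.09, with marked doublets removed, to 2.57, with products of UMI counts. Fos and Atf3 had a ratio of 1.73 (1.22 to 2.38) in B cells, from 37 cells, and 3 other random draws of the thinning gave 1.92, 1.27 and 1.29. Whether these ratios differ between A and B cells was not tested.

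The 2 most abundant members were seen together about as often as the product of their shares gives in both groups. Junb and Jund were both seen in 700 A cells against 696 expected and in 1421 B cells against 1375 expected, ratios of 1.01 (0.933 to 1.08) and 1.03 (0.981 to 1.09). Fosl1 with Jund had ratios of 1.01 and 0.984, and Fosl1 with Jun, read only in B cells, 1.01. As a correlation over cells, no pair passed a Pearson r of 0.099, for Fos with Junb in A cells, where Spearman's rho was 0.077. These cells share 1 library and a fixed depth, and correlations of this size in sparse counts are a description only.

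The genes whose counts were most like each member over cells were read the same way, among features with at least 50 CPM in the group, 3513 in A cells and 3264 in B cells. Ier3, an immediate-early gene that protects cells from death, was among the 3 nearest genes of Fos, Junb and Atf3 in A cells and of Fos and Junb in B cells. Gdf15, a secreted stress cytokine, was nearest to Junb (r 0.11, rho 0.078) and Atf3 (r 0.13, rho 0.057) in A cells, and Ccn1, a matricellular immediate-early protein, was nearest to Jun (r 0.084). Tm4sf1 was nearest to Fosl1 in A cells (r 0.078), followed by Il5ra and Krt7, of which Krt7 had 53.4 CPM in A cells and 1358 CPM in B cells.

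In B cells the nearest genes were Krt19 for Fos (r 0.077), S100a4 for Junb (r 0.086), Tuba1c for Fosl1 (r 0.055), Actb for Fosl2 (r 0.046) and Malat1 for Jund (r 0.069). Sorbs2 was nearest to Jund in A cells (r 0.091) and Trim2 to Fosl2 (r 0.055). Snhg1 was nearest to Atf3 in B cells at r 0.12, but its rho was -0.00059. Among these features Fosb and Batf3 had no neighbour above r 0.062, for Fosb with Phf21a in A cells. Fosb with Fos, which is under 50 CPM, had an r of 0.076 there, a value that rests on 3 cells with both against 0.302 expected.

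Other immediate-early genes gave a scale that the members did not enter. The list held 21 genes, among them Egr1, Ier2, Ier3, Klf6, Ccn1 and Ccn2, summing to 722 CPM in A cells and 1251 CPM in B cells. Thinned cells were placed by their UMIs of this list: 0, 1, 2, or 3 or more. Along it, Jun in A cells had 7.84, 9.31, 13.9 and 23.1 CPM, so the last class held 2.95 times the first (2.02 to 4.42). Jun was the 1 member past 2-fold with at least 10 CPM in either class, a minimum it met only in the class where it was higher, so the call is a description. Of all features, 0.423% were past 2-fold higher in the last class of A cells and 0.0118% in the first. In B cells 0 members were, with 0.957% of features higher in the last class and 0.172% in the first.

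**Figure D4:**
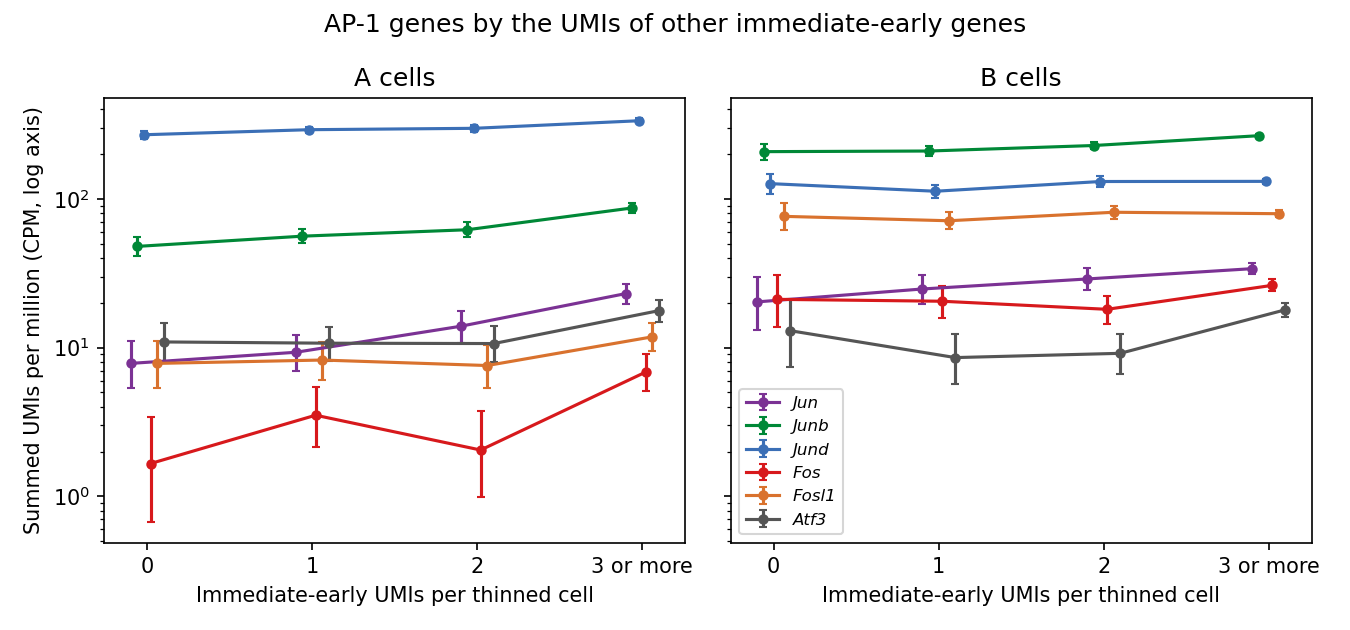
Level (CPM, log axis) of Jun, Junb, Jund, Fos, Fosl1 and Atf3 in A cells (left) and B cells (right), by the UMIs of 21 other immediate-early genes in cells thinned to 3000 UMIs, with exact 95% Poisson bars. Jun in A cells went from 7.84 CPM at 0 UMIs to 23.1 CPM at 3 or more, whereas Fosl1 in B cells went from 76.4 to 79.6 CPM.

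Junb in A cells went from 48.0 to 87.1 CPM, 1.81 times (1.55 to 2.14), and in B cells from 208 to 266 CPM, 1.28 times (1.13 to 1.46). Jun in B cells went from 20.3 to 34.0 CPM, 1.67 times (1.12 to 2.61). Fos in A cells rested on 7 and 51 UMIs, or 1.66 and 6.85 CPM, and in B cells it had 21.1 and 26.2 CPM, 1.24 times (0.836 to 1.92). Fosl1 in B cells had 76.4 and 79.6 CPM, 1.04 times (0.845 to 1.30), and Jund in B cells 127 and 131 CPM. So in B cells Fosl1 and Jund were nearly level along this scale. In A cells they were 1.51 times (1.0007 to 2.32) and 1.24 times (1.16 to 1.33) as high in the last class as in the first. In cells with 0 such UMIs, 1403 A and 410 B cells, Fosl1 was at 7.84 and 76.4 CPM, Junb at 48.0 and 208 CPM and Jund at 270.4 and 127 CPM. A count of 0 in a thinned cell cannot be read as absence of these RNAs. The part of immediate-early induction in the difference between A and B cells was not tested.

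Within A and B cells, states were set by marker UMIs, with at least 2 UMIs and at least 3 times those of the opposing state. The A states were 1142 cells with Tm4sf20, Epcam and S100g and 2478 cells with Ptchd4, Tnc and Acta2. The B states were 541 cells with Krt14 and Sprr1a and 4714 cells with Areg, Btc and Cftr. These markers came from earlier clusters of the same cells. Between the A states Fosl1 was past 2-fold, with 5.36 CPM (30 UMIs) in the Epcam and S100g cells and 11.0 CPM (154 UMIs) in the Tnc and Acta2 cells, a ratio of 0.489 (0.319 to 0.727). It met the minimum of 10 CPM only through the state where it was higher, so the call rests on that filter and is a description. Features past 2-fold higher in the Tnc and Acta2 cells made up 0.873%, and features past 2-fold higher in the Epcam and S100g cells 3.57%.

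Fos went the other way, with 6.97 CPM (39 UMIs) in the Epcam and S100g cells and 2.99 CPM (42 UMIs) in the Tnc and Acta2 cells, both under the minimum level. Junb had 86.0 and 64.0 CPM in these states, 1.34 times (1.20 to 1.502), and Jund 329 and 312 CPM. Mitochondrial share was 3.55% and 3.10% in the 2 states, and its part was not tested.

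In B cells no member was past 2-fold between the states, where 1.66% of features were past 2-fold higher in the Krt14 and Sprr1a cells and 0.316% in the Areg, Btc and Cftr cells. Jun had 45.8 CPM in the Krt14 and Sprr1a cells and 27.1 CPM in the Areg, Btc and Cftr cells, 1.69 times (1.42 to 2.01). Atf3 had 21.2 and 13.6 CPM, 1.56 times (1.20 to 2.01), Fos 30.4 and 21.9 CPM, 1.39 times (1.12 to 1.71), and Junb 303 and 244 CPM, 1.24 times (1.16 to 1.33). Fosl1 had 72.5 and 83.1 CPM, 0.872 times (0.762 to 0.994). Jund was at 312 CPM or more in both A states and at 162 CPM or less in both B states, and the order of A and B cells for Fosl1, Fos and Junb also held for every pair of states.

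**Figure D5:**
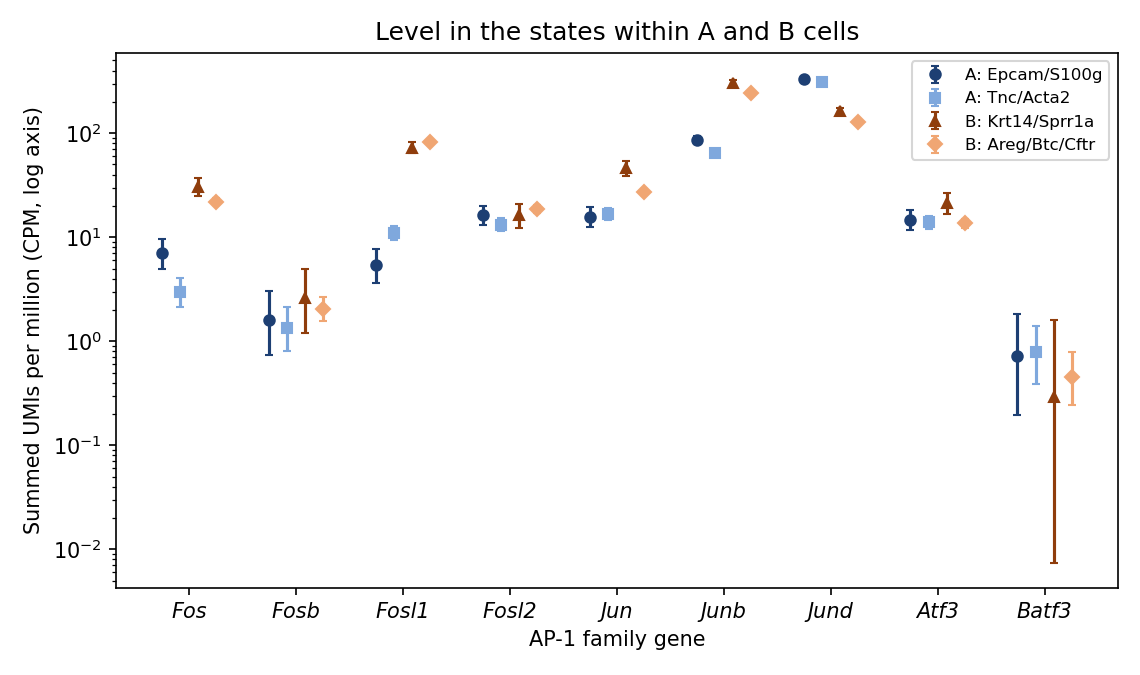
Level (CPM, log axis) of each AP-1 family gene in the states within A cells (blue, Epcam and S100g or Tnc and Acta2) and within B cells (brown and orange, Krt14 and Sprr1a or Areg, Btc and Cftr), with exact 95% Poisson bars. Fosl1 ran from 5.36 CPM in the Epcam and S100g state to 83.1 CPM in the Areg, Btc and Cftr state.

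Cells with most UMIs of 8 mitosis genes were compared with the others. The genes were Ccnb1, Cdc20, Plk1, Aurka, Cenpe, Cenpf, Hmmr and Tpx2, and the cells were ranked by these UMIs, not staged. In the 740 A and 882 B cells with most such UMIs, Junb had 49.1 CPM against 68.2 CPM in the other A cells, 0.720 times (0.587 to 0.875). Jun had 20.8 CPM against 32.5 CPM in the other B cells, 0.639 times (0.477 to 0.841). No member with at least 10 CPM was past 2-fold in either group. Of all features, 1.07% were past 2-fold higher in the cells with most such UMIs and 0.549% in the others for A cells, and 0.998% and 0.419% for B cells.

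Other genes of the pathway were taken from lists, counted where a gene reached 10 CPM in A or B cells and set beside a median log2 ratio of B over A of -0.17 for all 8800 features, of which 7.26% were past 2-fold higher in B and 10.3% higher in A. A gene that met this minimum only in the group where it was higher is a description. Of 16 immediate-early genes outside the family with that level, 9 were past 2-fold higher in B and 1 higher in A, with a median of 1.15. Of the 9, Socs3, Klf2 and Klf10 met the minimum only in B cells, and Btg2 met it only in A cells. Ier3 had 84.2 and 250.2 CPM in A and B cells, Ccn2 78.8 and 219 CPM, and Socs3, a brake on cytokine signalling, 2.28 and 17.1 CPM. Btg2, an antiproliferative gene induced by p53, was the 1 higher in A, at 20.4 and 6.94 CPM, and Ccn1 had 184 and 219 CPM.

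Of 21 upstream kinases and factors, 2 were higher in B and 1 in A, with a median of -0.26. Counts this small are near the 7.26% and 10.3% of all features, and Egfr met the minimum only in B cells. Egfr, the EGF receptor, had 5.29 CPM in A cells and 88.0 CPM in B cells, and Map2k1 was the other one higher in B. Map3k5, a stress-activated kinase above JNK and p38, had 79.6 and 33.7 CPM. Map2k2, a kinase that activates ERK, had 171 and 209.9 CPM, and Elk3, a partner of serum response factor, 59.2 and 94.2 CPM.

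Of 13 genes of feedback and turnover, 5 were higher in B (Dusp5, Dusp6, Dusp7, Dusp10 and Spry2) and 3 in A (Dusp16, Spry1 and Itch), with a median of -0.092, against 7.26% and 10.3% of all features. Dusp5, Dusp7, Dusp10 and Spry2 met the minimum only in B cells and Spry1 only in A cells. Dusp5, a nuclear phosphatase that ERK signalling induces and that inactivates ERK, had 6.93 and 125 CPM. Dusp16, a phosphatase of JNK, had 40.8 and 11.4 CPM, and the ubiquitin ligase genes Cop1 and Fbxw7, whose products degrade Jun, had 93.0 and 64.4 CPM and 52.0 and 53.2 CPM.

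Of 7 other bZIP partners, 1 was higher in each direction, with a median of -0.38, against 7.26% and 10.3% of all features. Mafk met the minimum only in B cells. Maf had 116 CPM in A cells and 16.5 CPM in B cells, and the small Maf gene Mafk 4.92 and 20.01 CPM. Atf2 and Atf7, relatives that pair with Jun, had 66.5 and 45.9 CPM and 63.3 and 53.7 CPM. Batf had 0 UMIs in both groups, with upper limits of 0.0916 and 0.0699 CPM from the same exact interval.

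Genes often described as AP-1 targets split. Of 17 with at least 10 CPM, 5 were higher in B and 4 in A, with a median of 0.57, against 7.26% and 10.3% of all features. Of these, 3 of the 5 met the minimum only in B cells, and Mmp3 met it only in A cells. The collagenase gene Mmp13 had 3.20 and 52.9 CPM in A and B cells, and Hbegf, Timp1 and Ivl were also past 2-fold higher in B. The stromelysin gene Mmp3 had 16.9 and 0.701 CPM, and the metallothioneins Mt1 and Mt2 and Vegfa were also past 2-fold higher in A. Among the most abundant, Spp1 had 1052 and 751 CPM, Hmga2 346 and 309 CPM and Ccnd1 274 and 506 CPM.

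Heat-shock chaperones, which help proteins fold, were listed as well. Of 6 with at least 10 CPM, 0 were past 2-fold higher in B and 2 higher in A, with a median of 0.044, against 7.26% and 10.3% of all features. Hspb1 met the minimum only in A cells. Hspb1 had 29.5 and 2.18 CPM, Hspa8 1451 and 1751 CPM, Hsp90aa1 977 and 1294 CPM, and Hsph1 127 and 126 CPM.

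Promoter sequence was available for 8 of the 9 genes in a RefSeq table of build GRCm38.p6, matched by symbol. Fosl1 had no entry. The 4 stretches shown are those of Fos and Junb, which were both higher in B cells and seen together in A cells, and of Jun and Atf3, the other pair seen together. Each runs 5′ to 3′ on the gene's strand, from 150 bases before the annotated start through the first 30 bases after it. Capitals mark TGACG on either strand (the core of a cAMP response element), TGACATCA (the variant AP-1 site of Jun) and TATAAA.
Fos (chr12:85473740-85473919, plus strand): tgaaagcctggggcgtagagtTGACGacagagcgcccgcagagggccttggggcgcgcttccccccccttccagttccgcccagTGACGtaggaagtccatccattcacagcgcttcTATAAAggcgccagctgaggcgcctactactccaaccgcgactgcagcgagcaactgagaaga
Junb (chr8:84978719-84978898, minus strand): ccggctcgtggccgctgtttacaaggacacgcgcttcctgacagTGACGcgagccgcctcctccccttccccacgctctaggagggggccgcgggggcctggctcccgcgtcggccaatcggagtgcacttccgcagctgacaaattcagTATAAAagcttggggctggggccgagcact
Jun (chr4:95052193-95052372, minus strand): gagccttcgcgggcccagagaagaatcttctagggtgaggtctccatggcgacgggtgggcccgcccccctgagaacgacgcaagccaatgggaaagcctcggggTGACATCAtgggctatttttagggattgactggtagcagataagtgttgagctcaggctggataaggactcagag
Atf3 (chr1:191183304-191183483, minus strand): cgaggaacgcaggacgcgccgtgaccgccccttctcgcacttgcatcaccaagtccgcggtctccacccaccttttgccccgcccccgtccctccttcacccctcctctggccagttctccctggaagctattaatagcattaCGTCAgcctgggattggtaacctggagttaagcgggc

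Over the full windows of 300 bases, searched on both strands, TGACG was found in 4 of the 8 promoters (Fos, Fosb, Junb and Atf3) and in 20.8% of all 32851 promoters of the table. TATAAA was found in Fos, 33 bases before its start, in Junb, 0 bases before its annotated start, and in 13.6% of all. TGACATCA was found in Jun, 45 bases before its start, and in 3.62% of all. The consensus AP-1 site TGACTCA (5.20% of all), the full element TGACGTCA, which contains TGACG (1.79%), and the CArG box of serum response factor (1.63%) were found in 0 of the 8. A match of letters is a description of the sequence, and the absence of one covers only this window.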

How the data were processed

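The deposited matrix holds raw whole-number UMI counts for each gene in each barcode, written by Cell Ranger 8.0.1 per the file headers. The genome build is GRCm39 per the submitters' processing notes, and the annotation and cell-calling settings are not given in the sources used here. The library, a 3′ droplet assay, held 22178 barcodes and 116505698 UMIs, from 500 to 23576 per barcode. The 9 genes, the A and B rule, the gene lists and the calls at 2-fold and at 1.5 times were chosen with earlier results of these data known.

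Counts were summed per group and scaled to CPM. Intervals are exact, at 95%. For shares and co-detection, cells were thinned at random to 3000 UMIs, leaving out 410 A and 109 B cells. Doublets were not removed, and Scrublet in scanpy 1.11.5 marked 1.87% of A and 2.33% of B cells for an alternative. Genes named outside the family were, per list, the 3 most abundant and the highest and lowest ratio, and, per member and group, the 3 with the highest Pearson r among features of at least 50 CPM. Other list genes past 2-fold, marker genes and examples of lists were named after their values were seen, and a few genes that these rules name are not reported here. Alternatives varied the cell filter, assignment, doublets, thinning, scaling and CPM minimum. The steps were tested on simulated data. Python 3.11.15, scipy 1.17.1 and numpy 2.4.6 were used.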

Additional observations from a re-analysis of the deposited data

Results flagged for a closer look

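The 4609 cells in neither A nor B were outside every comparison. They carried 491 CPM for the 9 genes together, against 431 CPM in A cells and 553.5 CPM in B cells. Of these cells, 3966 had under 2 UMIs of both marker sets, with a median of 4111.5 UMIs per cell, and 643 had a mix of both sets or too small a margin, with a median of 7911. Their levels lay between those of A and B cells for Fosl1 (34.6 CPM, 32.2 to 37.1), Junb (149 CPM, 144 to 155), Fos (11.99 CPM, 10.6 to 13.5) and Jund (239 CPM, 233 to 246). Fosl2, Jun and Batf3 also lay between. Atf3 (17.2 CPM, 15.5 to 19.0) and Fosb (2.22 CPM, 1.65 to 2.93) lay above both groups, with intervals that overlap those of B cells. Scrublet marked 9.20% of them as doublets.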

How the results depend on the processing

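No alternative changed the direction of any of the 9 ratios of B over A. Of 99 such values under 11 alternatives, 89 stayed within the counting interval and 10 moved, and 18 of the 89 are identical by construction, since the 2 changes of the CPM minimum leave a ratio as it is. On the log2 scale Fosl1 ran from 2.61 to 3.33, Fos from 2.41 to 2.99, Junb from 1.89 to 2.04, Jund from -1.26 to -1.11 and Jun from 0.87 to 1.10. Because Jun lies at the limit, 3 or 4 genes were past 2-fold higher in B cells, and 2 with a minimum of 50 CPM, which Fos does not reach. Jund was past it in all of them. Of 468 co-detection values, 26 left their interval. Pairs at 1.5 times or more in A cells, 2 in the report, numbered 1 under the stricter cell filter (Jun with Junb) and at 2000 UMIs (Junb with Atf3), 0 under the stricter assignment, and 4 without thinning and with products of UMI counts. In the first 3 of these settings Fos with Junb and Jun with Atf3 left the count because they had under 10 expected cells. Their ratios ran from 1.63 to 3.26 and from 1.64 to 2.35 over all alternatives. In B cells, 1 in the report, they numbered 2 under the stricter assignment and without thinning, 4 with products, and 0 at 5000 UMIs and in 2 of 3 other random draws of the thinning. At 2000 UMIs the number stayed at 1, but the pair was Jun with Atf3 (1.57) in place of Fos with Atf3. Why the other counts moved was not tested. Of 180 shares, 54 moved. Of 26 values over ranges, 1 moved with 3 ranges in place of 5, Jund over depth in B cells, to 1.19. The other draws of the thinning and the cells with 2 to 3% mitochondrial UMIs were chosen after seeing the data. No paired analysis was possible because there is 1 library. The spread between cultures is not measured by any of these.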
